A study of Caenorhabditis elegans with 2 samples.

Results

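Cuticle collagen genes of C. elegans were taken as every protein-coding gene named col- with a number, 156 genes, together with bli-1, bli-2, rol-6, sqt-1, sqt-3, dpy-7, dpy-13 and dpy-17. This gave 164 of 19985 protein-coding genes, picked out by a rule on names that uses no measured value. The data are chromatin immunoprecipitation followed by sequencing (ChIP-seq) of eGFP-tagged DAF-12 in whole L4 larvae, the last larval stage, with 2 biological replicates of 1 group. Both replicates were mixed-sex animals of strain OP222, genotype unc-119(ed3) III; wgIs222, where wgIs222 is the inserted tagged transgene. Both therefore carry the unc-119 allele and the transgene. The labels do not say which promoter drives the transgene or in which cells it is active, and signal from whole larvae cannot be assigned to the hypodermis. There is no second genotype, stage or hormone state here, so every comparison below is between genes within the same lists, and none is between conditions.

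The nematode cuticle is an extracellular coat that the hypodermis secretes anew at each moult. It is built mainly from short collagens whose chains carry long runs of the Gly-X-Y repeat, the sequence that winds into the collagen helix. Different collagen genes are transcribed at different moults and at different times within a moult, and mutants of some have short, rolling or blistered bodies, which gave them their names. DAF-12 is a steroid-hormone-regulated nuclear receptor that controls the choice between dauer arrest and reproductive growth and the timing of larval stages.

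The label was checked on the coding sequences. A run of 10 or more consecutive units of 3 codons, each opening with a glycine codon (GGN), was present in 163 of 164 collagen genes and in 39 of 19809 other nuclear protein-coding genes, 0.197%. The exception was col-17, whose annotated reading frame held runs of 1 unit. Another frame of the same annotated sequence held a run of 21 units, so the annotated frame and the family name do not match for this gene. The median longest run was 21 units in collagen genes and 2 units in the other genes. Collagen genes were short, with a median length of 1214 bp against 2039 bp, and GC-rich, with a median of 49.2% GC against 36.4% GC. Of the 164, 51 had the start of another collagen gene within 5 kb, in 34 pairs, so neighbours can share a region and are not independent.

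The sequences below carry what follows and were read from the ce11 (WBcel235) genome, plus strand for the windows and coding strand for the repeats. The windows run 60 bp to each side of the summit, the position of highest signal in a region. They belong to the collagen region that reached the authors' reproducibility threshold, the strongest region directly upstream of a collagen gene, and a region between neighbouring collagen genes, and they stand in lower case because none holds a DAF-12 half-site.
col-140 (chrV:5835318-5835438, past the gene's end): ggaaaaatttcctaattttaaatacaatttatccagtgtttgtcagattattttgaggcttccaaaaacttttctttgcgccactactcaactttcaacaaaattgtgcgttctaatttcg
col-115 (chrIV:7988394-7988514, upstream of the start): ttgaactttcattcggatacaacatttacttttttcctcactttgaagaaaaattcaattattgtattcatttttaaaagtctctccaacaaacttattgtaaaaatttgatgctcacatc
col-20 and col-73 (chrII:4871255-4871375, between the genes): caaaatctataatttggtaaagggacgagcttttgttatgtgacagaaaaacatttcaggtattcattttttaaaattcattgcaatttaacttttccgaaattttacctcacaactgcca
These windows were 31.4%, 26.4% and 29.8% GC.
For contrast, the first 90 bases of the longest glycine run of the same col-140, of col-115 and of sqt-3 are shown with the glycine codon that opens each unit in capitals.
col-140 coding repeat (chrV:5836233-5836322, minus strand): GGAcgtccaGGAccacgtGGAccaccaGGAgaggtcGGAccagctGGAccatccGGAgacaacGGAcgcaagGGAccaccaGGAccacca
col-115 coding repeat (chrIV:7990658-7990747, plus strand): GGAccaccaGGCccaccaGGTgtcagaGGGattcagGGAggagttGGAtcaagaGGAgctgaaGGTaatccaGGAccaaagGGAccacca
sqt-3 coding repeat (chrV:12353774-12353863, plus strand): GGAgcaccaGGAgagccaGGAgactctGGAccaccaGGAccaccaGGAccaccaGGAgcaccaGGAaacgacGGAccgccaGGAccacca
These stretches were 65.6%, 57.8% and 65.6% GC.
The last 2 windows run 100 bp to each side of the summit and were chosen after their values were seen, because they hold a half-site, in capitals, as AGGACA or its reverse complement.
col-177 (chrX:11003221-11003421, upstream of the start): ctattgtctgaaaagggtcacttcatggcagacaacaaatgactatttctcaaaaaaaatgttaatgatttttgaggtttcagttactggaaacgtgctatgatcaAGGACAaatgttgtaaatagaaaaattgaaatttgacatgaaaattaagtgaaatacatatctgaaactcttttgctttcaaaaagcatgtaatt
col-19 (chrX:422842-423042, past the gene's end): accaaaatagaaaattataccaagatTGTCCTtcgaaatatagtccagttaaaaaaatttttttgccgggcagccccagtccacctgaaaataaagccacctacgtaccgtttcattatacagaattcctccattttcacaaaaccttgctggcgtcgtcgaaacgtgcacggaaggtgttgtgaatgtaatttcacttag

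Most collagen genes had a listed region in reach, and so did most other genes. A gene was counted when a summit lay within 2 kb of one of its annotated transcript starts. The list called on both replicates together (the pooled list, 30000 regions) is titled peaks and background by the authors. A listed region therefore need not be a site bound by DAF-12. The authors' reproducibility-thresholded list holds 48 regions, 21 of them nuclear. In the pooled list, 122 of 164 collagen genes had a summit in reach, 74.4%, against 74.5% of other protein-coding genes. In the replicate 1 list (30000 regions) the count was 131 collagen genes, 79.9%, against 75% of the others. In the replicate 2 list (23934 regions) it was 113 collagen genes, 68.9%, against 66.7% of the others. The pooled share lay at the background, and both replicate shares lay within 5 percentage points of it. The nearest pooled summit was a median of 1225.5 bp from a collagen start, against 887 bp in the other genes. In replicate 1 these medians were 1055 bp and 890 bp, and in replicate 2 they were 1088.5 bp and 1173 bp, the other order. Nuclear hormone receptor genes of the nhr family, another large gene family, reached 74.7% in the pooled list.

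The lists differed in how many regions had a q-value, the authors' estimate of false discovery, below 0.05: 1709 in the pooled list, 5020 in replicate 1 and 14271 in replicate 2. The largest q-values in these lists were 0.825, 0.701 and 0.266. With the limit of 0.05, 15 collagen genes had a pooled region in reach, 9.15%, against 7.31% of other protein-coding genes. The count was 50 in replicate 1, 30.5% against 20.5% of the others, and 81 in replicate 2, 49.4% against 48.1%. At this limit the collagen share was thus above the others in replicate 1 and close to them in replicate 2. In any of the 3 lists, 151 collagen genes had a region in reach, 92.1% against 91.6% of the others. The 13 with none in any list were col-50, col-51, col-63, col-69, col-74, col-84, col-87, col-101, col-128, col-135, col-154, col-163 and dpy-17, a collagen gene needed for normal body length. Among the collagen genes, 42 had no pooled region, 56 had 1, 39 had 2, and 2 had 5, the most found. The mean was 1.40 pooled regions per gene in collagen genes and 1.40 in the others.

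Regions recurring in both replicates were more frequent near collagen genes than near other genes at this distance. Both replicate lists had a summit in reach of 96 collagen genes, 58.5%, against 52.5% of other protein-coding genes. A replicate 1 region and a replicate 2 region that overlapped by at least 1 bp were in reach of 49 collagen genes, 29.9%, against 20.7% of the others. Within 1000 bp of a start these shares were 12.8% and 12.1%. Among genes with both lists in reach, the overlapping share was 51% in collagen genes and 39.4% in the others. There were 1.46 replicate 1 regions and 1.17 replicate 2 regions per collagen gene, against 1.39 and 1.12 in the others, and the part of their number and spacing in the overlap was not tested. Of the nhr genes, 22.3% had an overlapping pair. In the 49 collagen genes the best overlapping region lay before the gene in 21, in the gene body in 11 and past the gene's end in 17, a split not made for other genes. The median gap between the replicates' summits was 126 bp. These shares come from 1 pair of replicates and from genes that share regions, so they carry no p-value.

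The recurring regions differ widely in rank within the lists. Rank 1 is the largest signal in a list, where signal is the authors' enrichment value on a scale that is not stated. In 4 of the 49 genes, 8.16%, both replicates ranked the overlapping region among their first 5000, against 6.89% of the 4095 other genes with an overlapping pair. The 4 were col-140, col-115 and the neighbours col-20 and col-73, and in 10 genes, 20.4% against 20.3% of the others, both ranks were within the first 10000. The other 6 of those 10 were col-33, col-152, col-120, col-176 and the neighbours col-93 and col-94.

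**Figure D1:**
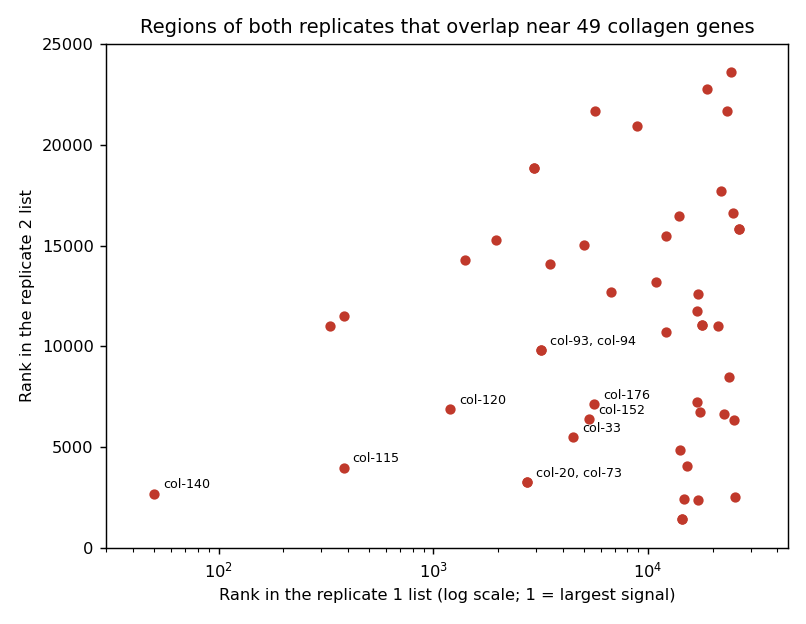
Rank of the overlapping region in the replicate 1 list (x axis, log scale) and in the replicate 2 list (y axis) for each of the 49 collagen genes with an overlapping pair, 1 point per gene; labels mark the 10 genes whose worse rank is smallest, and neighbours with the same region share a point. The col-140 region ranks 50 and 2696, at the lower left, and most points rank beyond 10000 in at least 1 replicate.

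col-140 was the single collagen gene within 2 kb of a peak in the authors' reproducibility-thresholded list, 0.61% of collagen genes against 0.141% of other protein-coding genes, a count of 1 against 28. The peak spans chrV:5835226-5835529, and its summit lies outside protein-coding genes, 477 bp past the annotated end of col-140. The nearest protein-coding start is that of srh-76, 1159 bp away, against 1456 bp for the start of col-140. Its signal was 21.2 in the pooled list, rank 43 of 30000, with a q-value of 0.00826. The same region had a signal of 14.3 in replicate 1, rank 50. In replicate 2 the overlapping region had a signal of 4.74, rank 2696, with its summit 634 bp past the gene's end. Both replicates thus placed a region past the gene's end, and replicate 2 ranked it far lower than replicate 1. Upstream of col-140, weaker summits stood 171 bp before the start in the pooled list, with a signal of 6.72, and 211 bp before it in replicate 2, with a signal of 3.44.

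col-115 carried the next strongest region, and the strongest directly upstream of a collagen start. Its summit was 231 bp upstream in the pooled list, with a signal of 15.1 and rank 130. Replicate 1 placed it 237 bp upstream with a signal of 9.91, rank 382. Replicate 2 placed it 197 bp upstream with a signal of 4.29, rank 3981. The summits of the 3 lists therefore lay within the width of a single region. The q-values were 0.0193 in the pooled list, 0.00655 in replicate 1 and 0.0049 in replicate 2.

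col-20 and col-73 lie in tandem on chromosome II and share a region whose summit is 524 bp upstream of col-20 and 783 bp past the end of col-73. Its signal was 11.5 in the pooled list (rank 761), 6.96 in replicate 1 (rank 2738) and 4.52 in replicate 2 (rank 3280). Which of the genes the region belongs to cannot be told apart by distance alone. col-126 and col-127 on chromosome IV, which end toward each other, likewise share a region, 387 bp past the end of col-126 and 124 bp past the end of col-127. Its signal was 10.8 in the pooled list, 4.26 in replicate 1 and 5.45 in replicate 2, with ranks of 1084, 14428 and 1427.

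The remaining strong pooled regions were less even between replicates. The col-165 region, 1431 bp upstream and inside an intron of F14H12.2, had a pooled signal of 13.3 and a replicate 1 signal of 7.38, and replicate 2 listed no region within 2 kb of col-165. The col-125 region, 129 bp past that gene's end in the untranslated region of best-7, had a pooled signal of 11.9 and a replicate 1 signal of 11.5, rank 161. Replicate 2 had no overlapping region there, and its strongest region near col-125 had a signal of 2.29. The col-117 region, 430 bp past the end and in a coding exon of T28C6.5, had signals of 11.8 in the pooled list, 10.1 in replicate 1 and 3.07 in replicate 2. At col-180 the pooled and replicate 1 summits were 575 bp past the end and 460 bp from the start of C44C10.11, with signals of 11.2 and 7.19, and the strongest replicate 2 summit was 244 bp past the end, with a signal of 3.95. Thus the regions of col-165, col-125 and col-180 were not matched by an overlapping replicate 2 region.

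**Figure D2:**
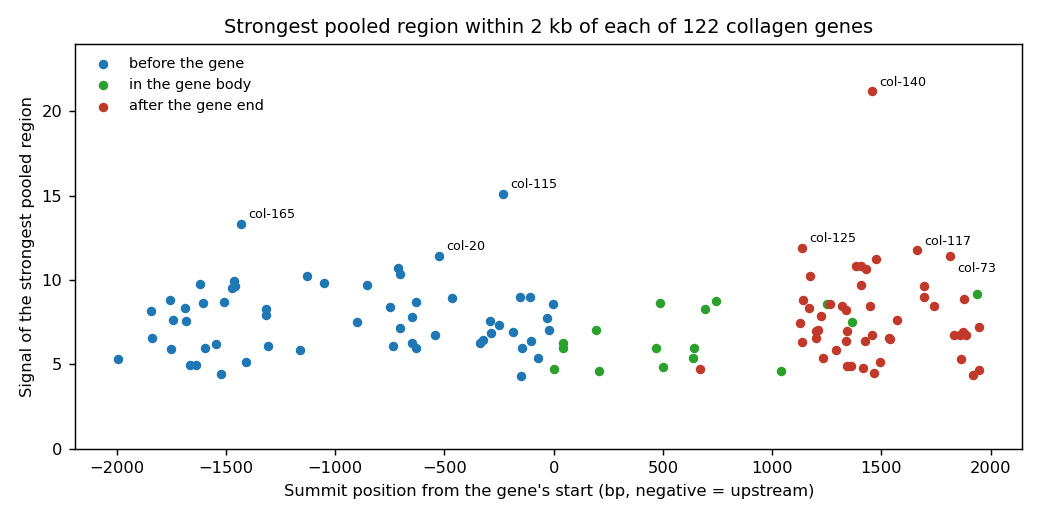
Signal of the strongest pooled region within 2 kb (y axis, the authors' enrichment value) against its summit position from the nearest start of the gene (x axis, bp), 1 point for each of the 122 collagen genes with a pooled region, coloured by place relative to the gene. The col-140 point stands at 21.2 and col-115 at 15.1, nearly all points past the gene end lie beyond 1000 bp, and few points lie between 0 and 1000 bp.

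Of the 8 collagens named for body shape or blisters, 6 had a pooled region in reach, 5 a replicate 1 region and 7 a replicate 2 region, shares of 75%, 62.5% and 87.5% against 74.5%, 75% and 66.7% of other protein-coding genes. A pooled q-value below 0.05 was reached at 0 of 8, against 7.31%, and overlapping replicate regions at 3 of 8, against 20.7%, namely sqt-3, dpy-7 and dpy-13. These counts out of 8 were not tested. The collagen gene sqt-1, whose mutants roll or are dumpy, had a pooled summit 1 bp upstream of a start with a signal of 8.60, rank 3558. Replicate 2 placed summits within the gene at 5 bp and 196 bp from the start, with signals of 4.17 and 5.80, and replicate 1 listed none within 2 kb. sqt-3, a collagen needed for normal body shape, had its strongest pooled summit 255 bp before its end, 744 bp downstream of its nearer annotated start, with a signal of 8.74, near which replicate 1 had a signal of 4.76 and replicate 2 a signal of 2.83. dpy-7, a collagen of the annular furrows, had pooled summits 1316 bp and 250 bp upstream with signals of 7.94 and 7.32. Its summit 254 bp upstream in replicate 2 had a signal of 3.07, and the one 328 bp upstream in replicate 1 a signal of 3.54.

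The other shape genes had lower pooled signals. dpy-13, a collagen needed for body length, had a pooled summit 70 bp upstream with a signal of 5.39, near which replicate 2 had a signal of 2.38, 39 bp upstream, and replicate 1 had none. Its strongest replicate 2 region was 103 bp past the end, with a signal of 4.88 and rank 2371, and overlapped a replicate 1 region of signal 3.95, rank 17116. Its strongest replicate 1 region was 1767 bp upstream, with a signal of 5.34. rol-6, whose dominant allele is a common roller marker, had a pooled summit 1040 bp into the gene with a signal of 4.61, no replicate 1 region and a replicate 2 region 1832 bp upstream. bli-2, a collagen of the adult cuticle struts, had a pooled summit past its end with a signal of 4.93 in a coding exon of zyg-1. bli-1, the other strut collagen named here, had no pooled region. Its replicate 1 summit, with a signal of 5.54, was 185 bp upstream in an intron of dph-2, and its replicate 2 summit, with a signal of 3.07, was 1194 bp upstream in a coding exon of col-80, so the lists did not coincide there.

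Of the stage-linked collagens, col-10 had a pooled region with a q-value below 0.05, and col-19, col-7 and col-2 did not. col-19, the adult-specific collagen used as a marker of the larval-to-adult switch, had a pooled summit 251 bp past its end with a signal of 5.40, rank 17539. In replicate 1 that signal was 6.68, and replicate 2 had no region within 2 kb of col-19. col-7, another adult collagen, had a single region, in replicate 1, 1764 bp upstream with a signal of 3.93. col-10 had summits on both sides in all 3 lists: past the end the signals were 10.2 in the pooled list, 3.88 in replicate 1 and 3.07 in replicate 2, and 187 bp, 207 bp and 68 bp upstream they were 9.05, 5.37 and 2.41. col-10 and its neighbour col-145 shared the stronger pooled region, with a q-value of 0.0435. col-2 had its strongest pooled summit 934 bp past its end with a signal of 7.20 and no overlapping replicate 2 region. col-99, which encodes a transmembrane collagen, had a pooled summit 325 bp upstream with a signal of 6.44 and no replicate 2 region.

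Signal levels in reach of collagen genes were close to those of other genes. The strongest pooled region per gene had a median signal of 7.27 in the 122 collagen genes in reach, with an interquartile range of 6.01 to 8.82, and of 6.55 in the other genes in reach, with a range of 5.34 to 8.18. In replicate 1 the medians were 5.28 for collagen genes and 4.85 for the others. In replicate 2 they were 3.22 for collagen genes and 3.36 for the others, the other order. The quartile ranges overlapped in every list.

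The position of the summits within and around collagen genes differed from that of other genes more than their number did. This pattern was noticed in the profile of summits and then measured, so its windows were chosen after seeing the data. Measured from the most upstream start, the first 1000 bp downstream held 15.9 pooled summits per 100 collagen genes against 29.2 per 100 other genes. The next 1000 bp held 49.4 pooled summits per 100 collagen genes against 28.7 per 100 other genes. In replicate 1 the first stretch held 15.9 per 100 collagen genes against 29.5, and the next 48.8 against 28.6. In replicate 2 the first stretch differed little, 23.2 per 100 collagen genes against 23.9, and the next held 31.1 against 23.8. Within the kilobase upstream of the start the collagen values were 38.4, 41.5 and 32.9 per 100 genes in the pooled, replicate 1 and replicate 2 lists, against 35.2, 34.6 and 27.2 in other genes.

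Collagen genes are short, so the second kilobase downstream mostly lies past their ends, and the profile was redrawn from the gene end. The 250 bp just past the end held 20.1 pooled summits per 100 collagen genes against 10.9 per 100 other genes, and the following 250 bp held 17.7 against 8.26. In replicate 1 these bins held 16.5 and 14.6 per 100 collagen genes, against 10.3 and 8.56 in other genes. In replicate 2 they held 11.6 and 11 per 100 collagen genes, against 7.84 and 6.50 in other genes. The collagen values were above the others in both bins of all 3 lists. They were also above the others in every bin from 1000 to 2000 bp past the end in the pooled and replicate 1 lists. At 1000 to 1250 bp they were 12.8 against 7.06 (pooled), 11.6 against 7.19 (replicate 1) and 6.10 against 5.91 (replicate 2). At 1750 to 2000 bp they were 11.6 against 7.47, 13.4 against 7.53 and 5.49 against 6.10. The excess was thus not confined to the bins next to the end. The pooled list contains the reads of both replicates, so only the 2 replicate lists are separate measurements.

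**Figure D3:**
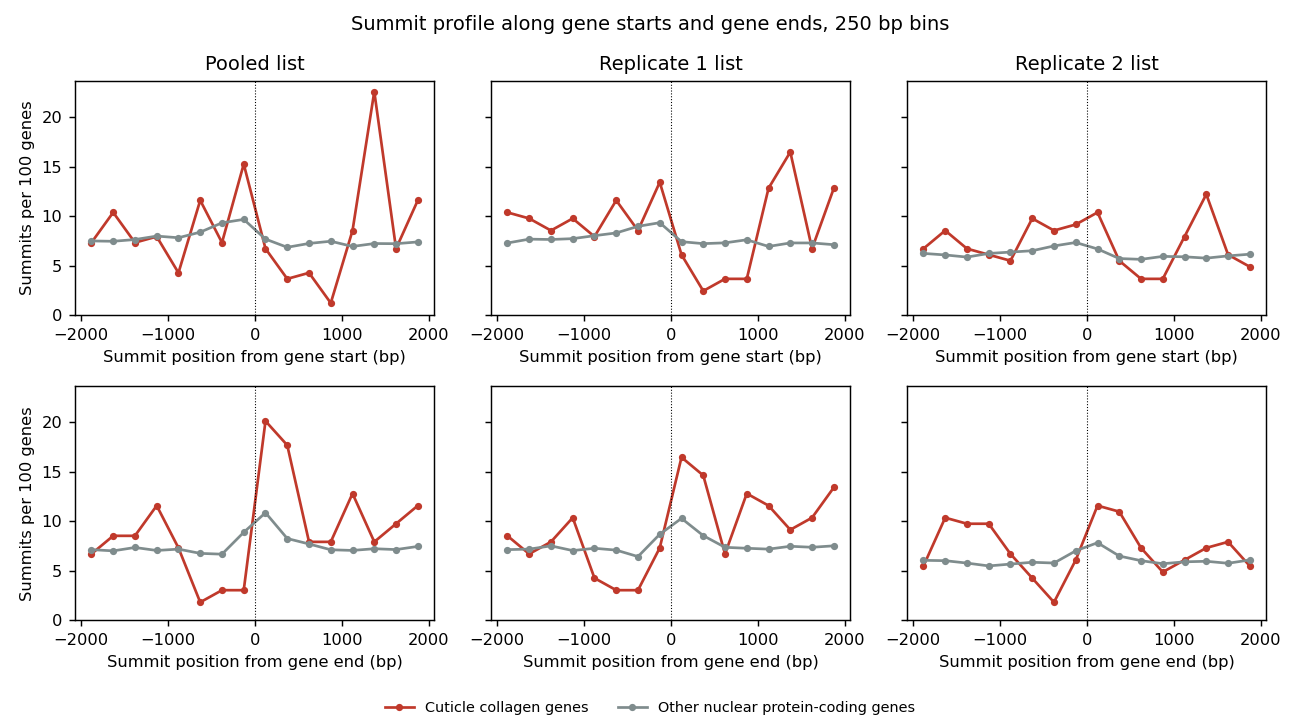
Summits per 100 genes (y axis) in 250 bp bins along the most upstream gene start (upper row) and the gene end (lower row) for the pooled, replicate 1 and replicate 2 lists, with cuticle collagen genes in red and other nuclear protein-coding genes in grey; positive positions are downstream. Collagen genes dip inside the gene and peak just past the end, at 20.1 in the pooled list, 16.5 in replicate 1 and 11.6 in replicate 2. In the pooled and replicate 1 lists they also lie above the others from 1000 to 2000 bp past the end.

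Per length of sequence, the bodies of collagen genes held 16.2 pooled summits per 100 kb, against 28.1 per 100 kb of other gene bodies. The difference was smaller in the replicates, at 19.5 against 28.3 in replicate 1 and 20.7 against 23.1 in replicate 2. Coding sequence alone held 9.94 pooled summits per 100 kb in collagen genes against 21.7 in the others, and 13.7 against 22.3 in replicate 1 and 17.4 against 21.4 in replicate 2. The kilobase past the gene end held 53.7 pooled summits per 100 kb in collagen genes against 34.0 in the others. In replicate 1 that window held 50.6 against 33.5, and in replicate 2 34.8 against 26.1. The 88 pooled summits counted there were 86 distinct ones, in 77 collagen genes. A pooled summit was thus present within 1 kb past the end of 47% of collagen genes, against 31% of the others, and a summit of each replicate list was present there in 15.9% of collagen genes against 9.04% of the others. In 113 of the 164 collagen genes this window also holds part of another protein-coding gene, and in the 51 whose window does not, it held 58.8 pooled summits per 100 kb, against 33.1 in the same kind of window of other genes.

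Base composition and repetitiveness also differed between collagen gene bodies and other gene bodies. Collagen gene bodies were 47.2% GC over their whole length, against 36.2% in the others, and 87.0% of their 31-base stretches occur once in the genome, against 93.4% in the others. The part of either in the gene body gap was not tested. There were 165 other protein-coding genes inside the middle range of the collagen genes for both length and GC. They held 15.4, 13.5 and 16.7 summits per 100 kb of gene body in the pooled, replicate 1 and replicate 2 lists. The collagen values were 16.2, 19.5 and 20.7, close in the pooled list and farther above in both replicate lists. In the bodies of these 165 genes 78.4% of 31-base stretches occur once, below the 87.0% of collagen gene bodies. The part of this in their body values was not tested. Past the gene end those genes held 29.7, 26.1 and 24.8 summits per 100 kb, below the collagen values of 53.7, 50.6 and 34.8. Before the start they held 25.5, 23.6 and 25.5, below the collagen values of 38.4, 41.5 and 32.9. The flanks of the 165 genes also differed in composition: past the end GC was 35.5% in collagen genes, 37.7% in the 165 and 35.1% in all other genes, and the share of 31-base stretches that occur once was 94.8%, 85.5% and 92.8%. Before the start that share was 97.1% in collagen genes, 84.7% in the 165 and 93.8% in all others, and its part in these flank values was not tested. A region was in reach of 74.4% of collagen genes and 58.2% of these 165 genes in the pooled list, and overlapping replicate regions were in reach of 29.9% of collagen genes and 16.4% of the 165.

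**Figure D4:**
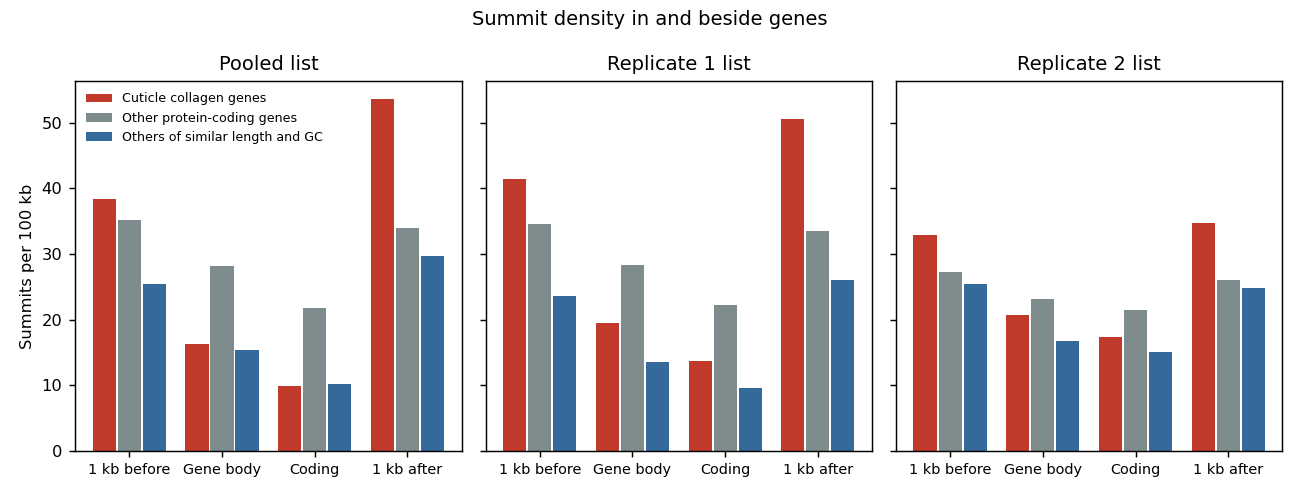
Summits per 100 kb (y axis) in the 1 kb before the gene start, the gene body, its coding sequence and the 1 kb after the gene end, for the pooled, replicate 1 and replicate 2 lists; red bars are the 164 cuticle collagen genes, grey bars the other nuclear protein-coding genes and blue bars the 165 others of similar length and GC. Red and blue bars are near each other in the pooled gene body, at 16.2 and 15.4, and far apart after the gene end, at 53.7 and 29.7.

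Stronger regions showed the same placing. Of the 15 collagen genes with a pooled q-value below 0.05, the strongest region lay past the gene end in 9, before the gene in 6 and in the gene body in 0. The region shared by col-20 and col-73 counts on both sides, and col-125 had a second such region 130 bp upstream. This split was not made for other genes, and a reach of 2 kb runs past the end of most genes this short. At that q-value gene bodies held 0 summits per 100 kb in collagen genes, 1.38 in other genes and 0.465 in the 165 genes of similar length and GC. The last value rests on 1 summit. Counting the kilobase past the end whatever its distance from the start, 11 collagen genes held such a summit, with the region of col-126 and col-127 counted for both. The density was 6.71 per 100 kb, against 2.36 in the other genes and 4.24, from 7 summits, in the 165 genes of similar length and GC. Besides col-140, col-125, col-117, col-73, col-180, col-126, col-127 and col-10, the 11 included col-159, col-61 and col-186, named after their values were seen, with signals of 10.6, 10.5 and 10.2. Among all 122 collagen genes with a pooled region, the strongest lay before the gene in 57, in the body in 16 and past the end in 49, with median signals of 7.59, 6.13 and 7.05. This split, too, was not made for other genes.

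The 209 distinct pooled regions near collagen starts were often near other genes too. Of these, 94 lay within 2 kb of the start of a protein-coding gene outside the 164, 154 had a start of the 164 as the nearest start, and 20 were in reach of more than 1 of the 164. Summits lay outside protein-coding genes in 46.9%, against 37% of the other pooled regions near starts, in introns in 20.6% against 35.1%, and in coding exons in 22% against 20.3%. A coding exon here can be that of a neighbour, as for col-117 and bli-2.

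DAF-12 is known to bind the hexamer half-sites AGTGCA and AGGACA, which were looked for on either strand, up to 100 bp from each summit. At least 1 of them was present at 22 of the 209 pooled regions near collagen genes, 10.5%, against 11.1% of the other pooled regions near starts. The half-sites differed in direction. AGGACA was present at 6.70% of collagen regions against 4.45% of the others in the pooled list, at 9.35% against 4.51% in replicate 1, and at 7.39% against 4.95% in replicate 2. AGTGCA was present at 4.78% against 7%, 4.67% against 7.2%, and 5.68% against 6.86%. The unrelated hexamer CACGTG was present at 3.35% of collagen regions against 2.91% of the others in the pooled list, at 3.27% against 2.96% in replicate 1, and at 5.68% against 3.09% in replicate 2. Its gap was thus the widest in replicate 2.

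AGGACA is also written into the collagen repeat, because a proline codon cca followed by a glycine codon GGA and a glutamine codon caa contains it. Collagen coding sequence held 34.2 AGGACA matches per 10 kb, against 3.69 per 10 kb of other coding sequence, while AGTGCA matches numbered 2.36 against 4.47. Past the gene end AGGACA numbered 5.24 per 10 kb in collagen genes against 2.69 in the others, and before the start 3.35 against 2.67. In replicate 1, 7 of the 20 collagen regions with AGGACA had a match inside collagen coding sequence, and in replicate 2 7 of 13, against 2 of 14 in the pooled list. Without those regions AGGACA was present at 5.80% of 207 collagen regions in the pooled list, 6.28% of 207 in replicate 1 and 3.55% of 169 in replicate 2. The other regions, from which none were taken out, held it at 4.45%, 4.51% and 4.95%, so in replicate 2 the order turned over. Taking regions with a match from the collagen side alone lowers the collagen share by construction. Of the stretches measured, collagen coding sequence had the densest AGGACA matches and the lowest density of pooled summits, 9.94 per 100 kb. Coding sequence of the 165 genes of similar length and GC held 10.2 pooled summits per 100 kb. A link between matches and summits was not tested.

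None of the 13 collagen regions with a pooled q-value below 0.05 held a half-site within 100 bp of the summit. Of the other regions at that q-value 12.3% did, and with 13 regions this difference was not tested. At the same limit half-sites were present at 9.8% of 51 collagen regions in replicate 1, against 11.4% of the others. In replicate 2 they were present at 11.3% of 106 collagen regions, against 11.6%. The 13 distinct windows at the collagen genes named by signal or by shared rank, all outside chromosome I, held none. Those named by signal are among the regions just counted, so they are not a separate observation. The windows named by shared rank alone were those of col-33, col-152, col-120, col-176 and the neighbours col-93 and col-94. Some of these windows are weak in the pooled list, such as col-33 at rank 21088. The col-177 and col-49 regions, at ranks 2151 and 2796, hold half-sites. These 13 windows had a median GC of 29.8%, from 21.5% to 40.5%. The absence of these letters says nothing of whether DAF-12 bound there. Among the 122 collagen genes with a pooled region, the strongest one held a half-site in 13, led by col-177, whose region 1471 bp upstream had a signal of 9.51 and rank 2151, and including col-19 and bli-2.

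By chromosome, the pooled share of collagen genes in reach varied more than that of other genes, and the replicates did not repeat that order. Each chromosome holds 13 to 42 collagen genes against 2627 to 4962 others. Shares of so few genes scatter more by counting alone, and whether they vary beyond that was not tested. Chromosome V had 29 of 32 collagen genes in reach of a pooled region, 90.6% against 72.8% of the other genes there, with 87.5% in replicate 1 and 68.8% in replicate 2. On chromosome I, 9 of 21 were in reach, 42.9% against 73.8%, with 61.9% in each replicate list. On X, 71.4% of 28 collagen genes were in reach of a pooled region, 92.9% of a replicate 1 region and 60.7% of a replicate 2 region, against 79.7%, 78.6% and 72.9% of the other genes. On II the largest share was in replicate 2, 82.1%, against 63.8% of the other genes. Collagen genes on chromosome I were below the other genes there in all 3 lists, and those on III, IV and V above them in all 3. Some of these gaps were small. On III in replicate 1 the shares were 76.9% of 13 collagen genes against 75.5%. In replicate 2 they were 69% of 42 against 67.6% on IV, and 61.9% against 65.9% on I.

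**Figure D5:**
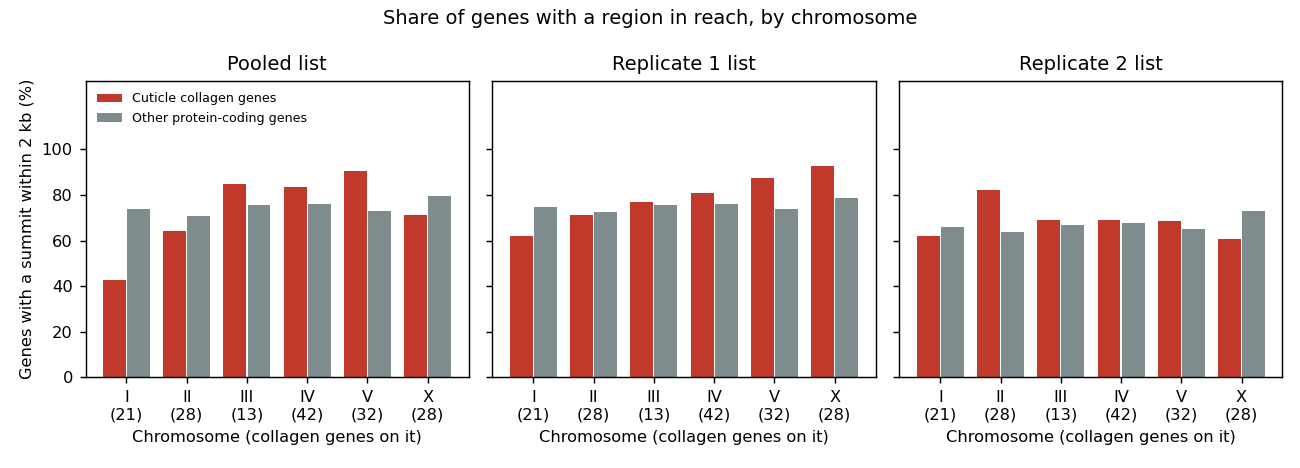
Percent of genes with a summit within 2 kb of a start (y axis) on each chromosome (x axis, with the number of collagen genes) for the pooled, replicate 1 and replicate 2 lists; red bars are cuticle collagen genes and grey bars other protein-coding genes. The red bar of chromosome I is 42.9% in the pooled list and 61.9% in each replicate list. The grey bars vary less than the red ones, each of which rests on only 13 to 42 genes.

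Other genes of the collagen pathway were counted from lists chosen by function. Of 13 further collagens named by mutant phenotype, such as dpy-10 and rol-8, 10 had a pooled region in reach, 0 had one with a q-value below 0.05, and 3 had overlapping replicate regions, dpy-2, dpy-10 and sqt-2. The largest pooled signals there were 8.43 at bli-6 and 7.94 at sqt-2. Of 13 genes for collagen folding, cleavage and cross-linking, 12 had a pooled region, 3 had one with a q-value below 0.05 and 4 had overlapping replicate regions. Those 3 were dpy-11, a thioredoxin-like enzyme of the hypodermis, with a pooled signal of 13.9 at 101 bp upstream, dpy-31, a protease that cleaves procollagen, with 11.8 at 1641 bp upstream, and phy-2, a subunit of collagen prolyl 4-hydroxylase, with 11.6 at 1870 bp upstream. dpy-11 had signals of 9.80 in replicate 1 and 5.35 in replicate 2, but the strongest replicate 2 summit lay 739 bp downstream of a start.

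Of 20 genes for moulting and its timing, 18 had a pooled region, 2 had one with a q-value below 0.05 and 6 had overlapping replicate regions. The period-related timing gene lin-42 had a pooled signal of 12.7 at 1299 bp upstream, and mlt-8, a gene needed for moulting, had 11.2 at 1027 bp upstream. Of 4 collagens of the basement membrane and other places, 2 had a pooled region and 1, the type IV collagen gene emb-9, had overlapping replicate regions. Over all other protein-coding genes the same shares were 74.5%, 7.31% and 20.7%, and these short lists were not tested against them.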

How the data were processed

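The labels describe 2 biological replicates of 1 group. Per the labels' text lists, the authors derived each replicate list and the pooled list from ChIP alignments and 1 control file, and the thresholded list from the pooled and both replicate lists. The deposited signal column holds the authors' enrichment value on an unstated scale, and the deposited −log10 q-values were turned into q-values. Which aligner and peak caller were used, and with what reproducibility threshold, is not given in the sources used here. Depth per sample is unknown, so no counting interval is given.

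The ce11 lists were joined to Ensembl release 115 genes of WBcel235, with 1-based coordinates and distances from the summit. Mitochondrial genes were left out of per-length values, which leaves 19809 other genes. Python 3.11.15, numpy 2.4.6, pandas 2.3.3 and matplotlib 3.10.9 were used. The assignment of summits to genes was tested on simulated data with 200 genes. With 1 group and no counts, no significance test was made.

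Named genes are the 8 shape genes, genes near a thresholded peak, the 10 of largest pooled signal, the 10 of best shared rank, 5 stage-linked or transmembrane collagens, and up to 3 per pathway list. The members, lists and rules were chosen with earlier results of these data known. Alternatives varied the distance, starts, q-value, motif window and replicates. Of 14 listed phenotype-named collagens, 1 was not matched by name. The planned protein features are not reported, since no protein table was used here.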

Additional observations from a re-analysis of the deposited data

How the results depend on the processing

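Across 12 results and 72 alternatives, 32 values stayed near the reported one, 32 moved and 8 changed direction. A count was called near when it changed by a factor of at most 1.5. Any other value was called near when it moved by less than the standard deviation of the 2 replicate lists. Values given without each replicate are those of the other replicate's own list, since the pooled list was not called anew. Densities and their alternatives, and the single-replicate values at the q-value limit, were added after seeing the data.

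Within 1000 bp of a start the count of collagen genes fell to 75 for the pooled list (45.7% against 53.8% of the other genes), 5 at a q-value below 0.05 (3.05% against 4.25%), 43 for both replicate lists (26.2% against 27.03%), 21 for overlapping regions (12.8% against 12.1%) and 0 for the thresholded list (against 0.111%), since the col-140 peak lies farther out. Within 5000 bp it was 34 at a q-value below 0.05 (20.7% against 15.6%), 146 for both replicate lists (89.0% against 87.4%) and 82 for overlapping regions (50% against 41.3%). A q-value limit left 15 collagen genes at 0.05 (9.15% against 7.31%) and 1 at 0.01 (0.61% against 0.182%). Requiring each summit inside the other region left 27 overlapping genes (16.5% against 12.2%).

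The difference in reach, −0.07 percentage points, lay near 0 and changed sign readily: it was −8.10 within 1000 bp, −4.54 with each summit given to its nearest start, 1.08 with the most upstream start, 1.84 at a q-value below 0.05 and 4.68 for genes with 1 start. Without each replicate it was 2.20 to 4.86. The signal difference was 0.18 within 1000 bp and −0.14 to 0.43 without each replicate, and that of the distance to the nearest summit was −84.5 to 165 bp, against 338.5 bp, so both turn over in the replicate 2 list. Without each replicate, 50 to 81 collagen genes passed the q-value limit, 30.5% against 20.5% of the others in replicate 1 and 49.4% against 48.1% in replicate 2.

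The half-site share was 6.22% within 50 bp, 23.4% within 200 bp, 0% of 13 regions at a pooled q-value below 0.05, and 11.9% to 13.1% without each replicate. The gene body difference was 0.89 per 100 kb against others of similar length and GC, −1.38 at a q-value below 0.05, and −8.85 to −2.40 without each replicate. The difference past the gene end was 4.35 at a q-value below 0.05, 25.7 in windows free of other genes, and 8.69 to 17.1 without each replicate. Before the start it was 5.79 and 12.96 against others of similar length, and of similar length and GC, 0.89 at a q-value below 0.05, 10.01 in free windows, and 5.76 to 6.86 without each replicate. Where no value above shows it, the cause was not tested.

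No paired analysis was possible because the series holds 1 group only. Counts that need both replicate lists cannot be remade without 1 of them. Depth is unknown, so how far it limits either list cannot be said.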
